A study of Mus musculus with 16 samples.

Results

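The 10 genes described here encode the 3 TGF-beta ligands (Tgfb1, Tgfb2 and Tgfb3), 3 receptors (Tgfbr1, Tgfbr2 and Tgfbr3) and 4 latent TGF-beta binding proteins (Ltbp1, Ltbp2, Ltbp3 and Ltbp4). They were taken by symbol as 1 gene family, with no threshold on their values, and all 10 were found among the 20056 genes of the deposited table. RNA-seq had been run on sorted osteoblasts (OB) and sorted mesenchymal stem cells (MSC) of miR-9-1-deficient mice, made by CRISPR/Cas9 editing, and of wild-type mice. The 16 libraries form 4 groups of 4: miR-9-1-deficient OB, wild-type OB, miR-9-1-deficient MSC and wild-type MSC. No agent was given to any group as far as the labels say, and the labels used here state no strain, age, sex or sort gate. Titles carry a number that recurs in both sorts and was taken as the animal's, with 1 library per sort for each of 8 numbers. An OB library may still hold RNA of more than 1 mouse (see Xist and Ddx3y below). Lettered here in place of those numbers, mice E to H are miR-9-1-deficient and mice A to D are wild-type. The labels do not say whether the deficient mice descend from 1 founder, and p-values measure only the spread between these libraries.

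TGF-beta is secreted in a latent form. The mature ligand stays wrapped in its own propeptide, the propeptide is joined to a latent binding protein, and that protein anchors the complex to fibrillin microfibrils of the matrix. Integrins, thrombospondin and proteases free the ligand, which then brings a type II receptor (Tgfbr2) and a type I receptor (Tgfbr1) together, and the type I kinase phosphorylates Smad proteins that enter the nucleus. Betaglycan (Tgfbr3) is a co-receptor that presents ligand to the signalling receptors and, when shed, holds it back. Bone matrix is a large store of latent TGF-beta, which is known to recruit stromal progenitors and to restrain late osteoblast maturation. miR-9-1 is 1 of the loci that give rise to miR-9, a small RNA that lowers messages carrying matches to its seed.

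Depth was 15543693 to 18962771 reads per OB library and 10148197 to 14246986 per MSC library. Reads of Mir9-1 itself were too few for a test: they numbered 0, 3, 0 and 0 in deficient OB libraries E to H, against 7, 16, 0 and 4 in wild-type OB libraries A to D, and 0 in all 8 MSC libraries, where 0 reads allows up to 4.51 normalized counts (3 reads, counting error only). The labelled sorts were set against their markers. In MSC libraries, 8 stromal markers summed to between 33278 and 65382 normalized counts. Markers of other cells were present there too. Tendon and connective fibroblast markers (6 genes) summed to between 151907 and 297861, and neutrophil markers (6 genes) to between 22674 and 97189. Sums of different lists depend on their genes and are not shares of cells. None of 8 osteoblast markers was at 0 in all libraries of an OB group, yet 7 of the 8 had a lower mean in wild-type OB than in wild-type MSC libraries, and 6 of these passed as lower (adjusted p under 0.05, the test used throughout). Blood progenitor markers (6 genes, among them Kit and Cd34) summed to between 14415 and 17976 normalized counts in OB libraries, against 2813 to 5058 in MSC libraries. Transcripts of Xist (from the inactive X) were at 3719.5 or more, and of the Y-linked Ddx3y at 649 or more, in each OB library. In MSC libraries of E and F (deficient) and A (wild-type), Xist lay between 291 and 392.1 and Ddx3y at 1848 or more, while in those of G and H (deficient) and B, C and D (wild-type) Xist was at 11937 or more and Ddx3y at most 78.1. The labels used here give no sex, and these transcripts were thus not evenly spread over the genotypes. For B, C, D, G and H, Ddx3y was at 649 or more in the OB library and at most 78.1 in the MSC library. For A, E and F, Xist was at 3719.5 or more in the OB library and at most 392.1 in the MSC library. OB libraries may thus hold RNA of more than 1 mouse, and whether they share RNA was not tested. The OB libraries of E and F had the lowest Xist of the 8. The MSC libraries of mice G and H held the most skeletal muscle RNA, 1265 and 4853 summed over 6 markers, against at most 299.1 in the other MSC libraries. The OB libraries of mice E and F held the most stromal RNA, 21409 and 38720.00 summed over 8 markers, against 6677 to 12170.1 in the other OB libraries.

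Mature miR-9 sequences (RefSeq, GRCm38.p6) are shown first, because the edited locus gives rise to them. Capitals mark the seed, bases 2 to 8. The 5p strand lies at chr3:88215613-88215635 and the 3p strand at chr3:88215652-88215673, both on the plus strand.
miR-9-5p: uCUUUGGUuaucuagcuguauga
miR-9-3p: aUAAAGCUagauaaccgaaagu

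For each gene, the longest 3′ UTR in GENCODE vM21 (GRCm38) was searched for letters that pair with bases 2 to 8 of miR-9-5p, or with bases 2 to 7 followed by an A. Of the 10 genes, 6 held at least 1 match. The sites are printed with 8 bases on each side, as the messenger strand reads, with capitals for the matched letters.
Tgfb2 site, chr1:186624080-186624102, minus strand: agataaaaACCAAAGcccaaaaa
Tgfb3 site, chr12:86057708-86057730, minus strand: cttggaaaACCAAAGcgacagac
Tgfbr1 site, chr4:47412539-47412561, plus strand: ggtcttaaACCAAAGtaactgta
Tgfbr2 first site, chr9:116090317-116090339, minus strand: tcctctagCCAAAGAccagaggc
Tgfbr2 middle site, chr9:116088317-116088339, minus strand: tgttgcaaACCAAAGtctgtctt
Tgfbr2 last site, chr9:116085955-116085977, minus strand: tttgtgcaACCAAAGtgcctgct
Tgfbr3 site, chr5:107108189-107108211, minus strand: aaatttgaACCAAAGcagatttc
Ltbp1 site, chr17:75390680-75390702, plus strand: gtgaacccCCAAAGAcagtgagc

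No such letters were found in the 3′ UTRs of Tgfb1, Ltbp2, Ltbp3 and Ltbp4. A match was found in 20.3% of all 21007 3′ UTRs searched. Long UTRs hold matches more often, so each gene was read against UTRs of 0.8 to 1.25 times its length. The share with a match was 16.8% at the length of the Tgfb3 UTR (1035 bases), 19.6% at that of Ltbp1 (1214 bases), 36.5% at that of Tgfb2, 42.1% at that of Tgfbr3, 51.9% at that of Tgfbr1 and 62.6% at that of Tgfbr2 (6085 bases). Only the UTRs of Tgfbr1 and Tgfbr2 also held a match to the miR-9-3p seed (1 each), at lengths where 46.4% and 59.7% of UTRs do. The 3p match in Tgfbr2 lies close to the middle 5p site.
Tgfbr2 site of miR-9-3p, chr9:116088365-116088388, minus strand: agggaatgAGCTTTAAaaggaaac

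The study set out to learn what miR-9-1 does in the marrow niche of lymphocyte formation, and the first comparison asks how these genes differ with its loss in MSCs. Of the 10 genes, 1 passed the test: Ltbp1, the binder that anchors latent TGF-beta to microfibrils, fell to 0.477 of its wild-type mean. None rose past the threshold. The other 9 genes did not pass, although the libraries of Tgfb3, Tgfbr2 and Tgfbr3, like those of Ltbp1, did not overlap between genotypes. Passing means a Benjamini-Hochberg adjusted p under 0.05 over all 14964 genes tested by limma on log2(normalized count + 1). Of all genes tested, 0.501% passed as higher and 0.561% as lower (75 and 84 genes; edgeR, on recovered reads, called 87 and 60), and the libraries of 12.4% did not overlap, against 4 of these 10. The median log2 fold change was -0.28 over the 10 genes and -0.03 over all genes. Gene positions are on GRCm38, and all 10 genes are protein-coding. Throughout, values are normalized counts in the order of mice E, F, G, H and A, B, C, D, means carry their SD (n = 4), log2 fold changes carry their SE, and adjusted p-values are limma's.

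Among the ligands in MSCs, Tgfb3 (chr12:86056745-86079041, minus strand), the isoform known best from palate and lung development, had 3258, 3498, 3584 and 3815 normalized counts in deficient mice, against 4875, 4741, 5881 and 5805 in wild-type mice. Each deficient library lay below each wild-type library. The log2 fold change was -0.58 ± 0.13, just short of passing (adjusted p = 0.055). Tgfb2 (chr1:186622792-186705989, minus strand) had 2885, 2388, 2939.8 and 2424 in deficient mice, against 2322, 1538, 1561 and 2720.1 in wild-type mice. Wild-type libraries A, B and C lay below all deficient ones, and D within their range (0.42 ± 0.19, adjusted p = 0.218). Tgfb1 (chr7:25687002-25705077, plus strand), the main TGF-beta of bone matrix, had 1886, 3777, 3319 and 1957 in deficient mice, against 3172, 2918, 3038 and 3390.3 in wild-type mice. Mice E and H lay below every wild-type library, and mouse F above them all, so that the groups overlapped and the spread was wide in deficient mice (-0.26 ± 0.22, adjusted p = 0.5; -0.44 without F and -0.10 without E).

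Among the receptors in MSCs, betaglycan (Tgfbr3, chr5:107106570-107289629, minus strand) had 14002, 5277, 7191 and 8332 normalized counts in deficient mice, against 4761, 3498, 3925 and 3003 in wild-type mice. The lowest deficient library lay above the highest wild-type one, and mouse E stood well above the other deficient mice. The mean was 2.29 times that of wild-type mice, with a log2 fold change of 1.12 ± 0.26 that did not pass (adjusted p = 0.0611). Tgfbr2 (chr9:116084293-116175360, minus strand), the type II receptor that binds ligand first, had 4588, 4034, 4350.2 and 3206 in deficient mice, against 5009, 4723, 4930.4 and 5129 in wild-type mice. Its groups did not overlap either, but the difference was small (-0.30 ± 0.14, adjusted p = 0.215). Tgfbr1 (chr4:47353222-47414931, plus strand), the type I kinase, had 2155, 2474, 1942 and 1885 in deficient mice, against 2066, 2499.98, 1813 and 1808 in wild-type mice. The ranges lay almost on top of each other (0.05 ± 0.15, adjusted p = 0.86).

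**Figure D1:**
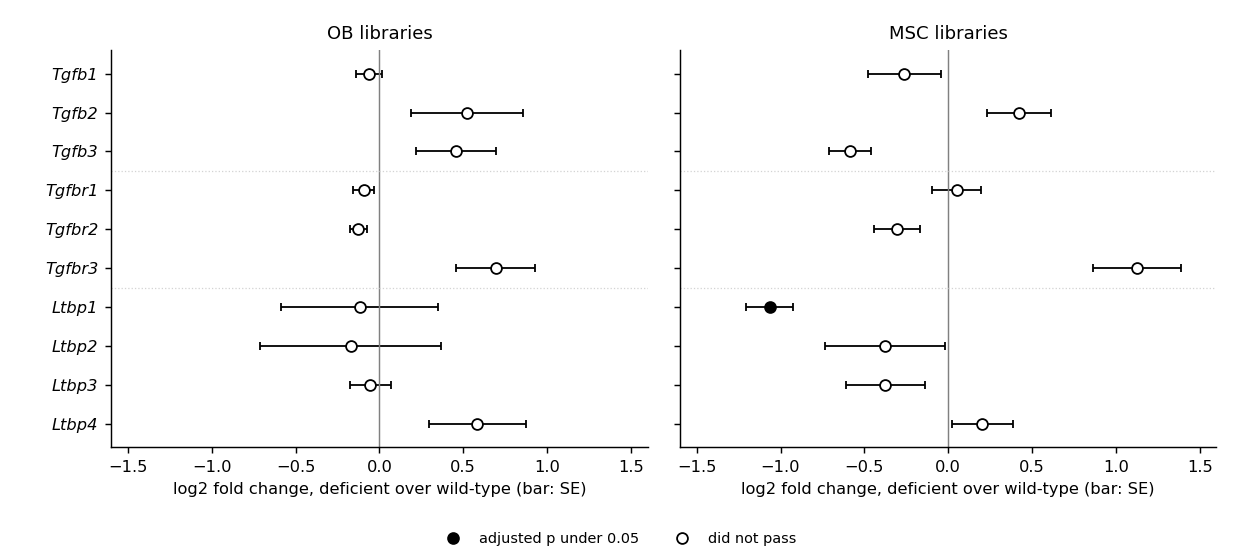
Log2 fold change of deficient over wild-type mice for the 10 genes in OB libraries (left) and MSC libraries (right), with the SE as bars (4 against 4 libraries). Filled points passed at an adjusted p under 0.05, which only Ltbp1 in MSC libraries did, at -1.06.

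Among the latent binders in MSCs, Ltbp1 (chr17:75005568-75392512, plus strand) had 2653, 3151, 2383 and 2649 normalized counts in deficient mice, against 4867, 5168, 6419.5 and 6256 in wild-type mice. The groups were far apart, with the highest deficient library below the lowest wild-type one. Means were 2709 ± 321 in deficient mice and 5678 ± 775 in wild-type mice, and Ltbp1 fell by 1.06 ± 0.14 on the log2 scale (adjusted p = 0.0253), the sixth smallest p of all genes. The animal numbers in the titles fall into 3 series (A, B, E and F, then C and G, then D and H), whose meaning the labels do not give. Since the groups did not overlap, Ltbp1 had to be lower in deficient mice within each series, so that order is no further result. The direction held in all 18 alternatives, at -1.14 to -0.96. Leaving out libraries could not reverse it, since the groups did not overlap. The call held in only 9 of the 18. It was lost without wild-type library B (adjusted p = 0.0755), C (0.0831) or D (0.0774) and without deficient library E (0.0503), G (0.0823) or H (0.0729), with the animal number series in the model (0.0678), in 1 fit of all 16 libraries (0.0629), and without mice G and H together (0.256).

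Of 15 marker lists, the osteoblast and blood progenitor sums separated the MSC genotypes as Ltbp1 did. The osteoblast sum lay between 173456 and 455987 normalized counts in deficient MSC libraries, against 635566 to 847003 in wild-type ones, mostly Col1a1, and 2 of the 8 markers passed as lower. Blood progenitor markers summed to between 2813 and 3085 in deficient MSC libraries, against 3425 to 5058 in wild-type ones, and 0 of 6 passed. Sums of chondrocyte and B lineage markers overlapped, but their mean log2 levels did not. Chondrocyte markers averaged 9.97 to 11.98 in deficient MSC libraries, against 12.67 to 14.25 in wild-type ones (0 of 6 passed), and B lineage markers 5.26 to 5.79 in deficient ones, against 6.50 to 7.43 in wild-type ones (1 of 5 tested passed as lower, and Vpreb1 was at 0 in all deficient MSC libraries). Stromal marker sums overlapped between the MSC genotypes, and 1 of the 8 stromal markers passed as lower. The part of these cell types in the Ltbp1 result was not tested, and in bulk libraries fewer cells of a type and less RNA per cell cannot be told apart.

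The other latent binders did not pass. Ltbp2 (chr12:84783212-84876532, minus strand), which binds no latent TGF-beta and is known from elastic fibres, had 6711, 18352, 8595 and 4353 in deficient mice, against 11458, 11472, 12823 and 7742 in wild-type mice. Mouse F was the highest and mouse H the lowest of all 8 MSC libraries (-0.38 ± 0.36, adjusted p = 0.561). Ltbp3 (chr19:5740904-5758532, plus strand), the binder whose loss in mice alters skeletal growth, had 9372, 14953, 11751 and 6425 in deficient mice, against 15121, 13103, 11448 and 13214 in wild-type mice. Again mouse F was high and mouse H low, and the groups overlapped (-0.38 ± 0.23, adjusted p = 0.363). Leaving out F or H moved these values the most, to -0.76 without F and -0.07 without H for Ltbp2, and to -0.56 without F and -0.16 without H for Ltbp3, with no call in any of the 4 fits. Ltbp4 (chr7:27305136-27337692, minus strand), which takes part in elastic fibre assembly and binds latent TGF-beta weakly, had 16578, 16349, 14639 and 12204 in deficient mice, against 16968, 12682, 12159 and 10497 in wild-type mice. Those groups also overlapped (0.20 ± 0.18, adjusted p = 0.534). Per kilobase of transcript, Ltbp1 made up 6.42% ± 1.63 of the summed binder level in deficient MSCs and 11.6% ± 2.56 in wild-type MSCs (SD), while Ltbp4 made up 43.4% ± 7.75 in deficient MSCs and 32.4% ± 3.29 in wild-type MSCs. The libraries of the genotypes overlapped in both shares, which carry no test.

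**Figure D2:**
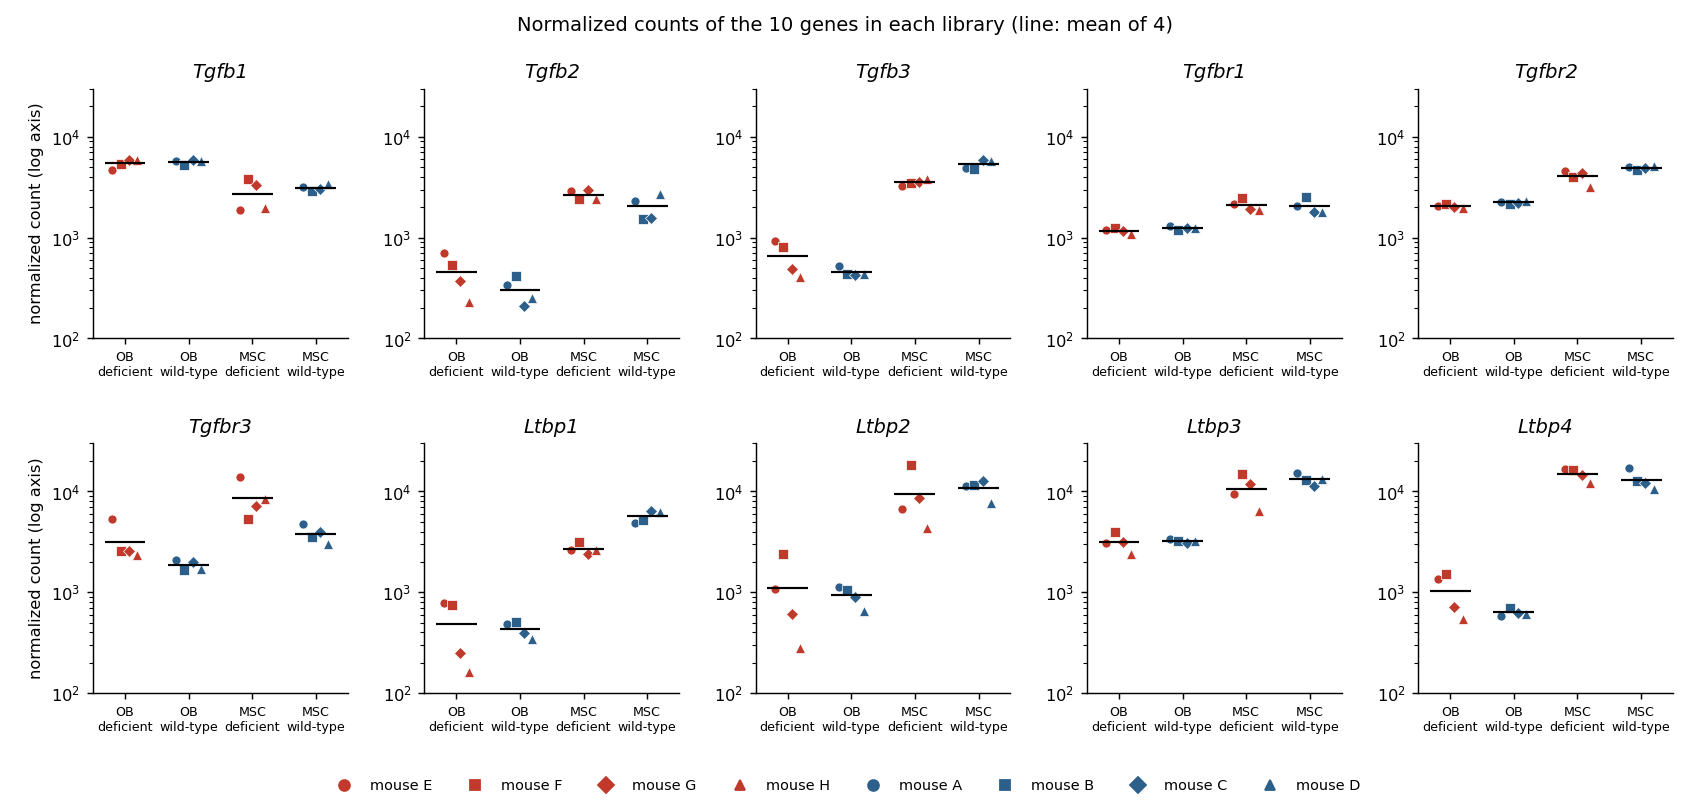
Normalized counts of each gene in each of the 16 libraries (points, log axis), by group from left to right: deficient OB, wild-type OB, deficient MSC and wild-type MSC; the line is the mean of 4. Ltbp1 in MSC libraries separates the genotypes, and only Tgfb1 is higher in OB than in MSC libraries.

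For Ltbp1, 2 start sites are annotated, which serve the long and the short form of the protein. The 250 bases before each are shown, since Ltbp1 is the gene that passed; deposited values sum both forms. Capitals mark CAGAC or its reverse complement GTCTG (the Smad box). The windows are chr17:75005279-75005528 and chr17:75178531-75178780, plus strand, from RefSeq on GRCm38.p6.
Ltbp1 upstream start: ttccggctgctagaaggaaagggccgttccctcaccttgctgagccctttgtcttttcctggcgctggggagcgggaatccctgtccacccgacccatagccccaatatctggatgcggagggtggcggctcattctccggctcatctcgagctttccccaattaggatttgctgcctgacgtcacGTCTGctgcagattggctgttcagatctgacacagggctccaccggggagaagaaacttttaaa
Ltbp1 downstream start: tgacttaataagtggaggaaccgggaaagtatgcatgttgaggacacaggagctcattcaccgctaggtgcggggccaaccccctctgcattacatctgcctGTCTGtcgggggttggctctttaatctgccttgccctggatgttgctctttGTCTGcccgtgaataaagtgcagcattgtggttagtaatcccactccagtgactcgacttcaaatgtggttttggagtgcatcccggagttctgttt

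The upstream window holds 1 Smad box and the downstream window 2. Such a box is common: 42.2% of 32851 promoter windows of this length held CAGAC on either strand, against 7 of 12 windows found for 8 of the 10 genes. The AP-1 motif TGANTCA was in none of the 12 windows and in 6.75% of all windows. The GC box GGGCGG was in 6 of the 12 and in 32.7% of all, and the TATA box TATAAA in 1 of the 12 (Tgfb2) and in 12.4% of all. The 12 windows are not separate promoters. Those of Ltbp4 at chr7:27333649-27333898 and chr7:27333664-27333913 overlap for most of their length, and both count among the windows with a GC box. These are matches of letters only.

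The rest of the pathway in MSCs was read from 5 gene lists. Microfibril docking and activation genes were the list in which calls were made downward: 2 of 21 genes tested were lower and none higher. Of all genes tested, 0.561% passed as lower and 0.501% as higher. The median log2 fold change of the docking list was -0.53, against -0.03 over all genes. Fbn1, the fibrillin to which latent complexes dock, fell to 7442 ± 2095 in deficient MSCs, against 17432 ± 3538 in wild-type MSCs (-1.25 ± 0.22, adjusted p = 0.0321). Bmp1, a protease that processes procollagens and cuts latent binders loose from the matrix, fell to 3781 ± 752, against 6996 ± 354 in wild-type MSCs (-0.91 ± 0.16, adjusted p = 0.0348). Of 12 activin genes, 1 was higher: Fst, the activin-trapping follistatin, rose to 1475 ± 396 in deficient MSCs, against 703 ± 122 in wild-type MSCs (1.04 ± 0.21, adjusted p = 0.0427). Each of these 3 calls was lost without A, B, C, D, E, G or H (adjusted p from 0.0715 to 0.120), with the animal number series in the model (0.0711 to 0.0864) and without mice G and H together (0.256 to 0.265), and held without F. In 1 fit of all 16 libraries Fbn1 (0.0589) and Fst (0.0628) were also lost, as they were with the level of Xist as a covariate, an alternative chosen after seeing the data (0.0568 for Fbn1 and 0.0752 for Fst).

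No gene passed in the other 3 lists in MSCs. Smad signalling had 0 of 18 (median 0.11). Its smallest p-values belonged to Tgif1, a Smad co-repressor (1389 ± 177 in deficient MSCs and 919.6 ± 181 in wild-type MSCs, adjusted p = 0.0811), and Ppm1a, a Smad phosphatase (2659 ± 802 in deficient MSCs and 1614 ± 184 in wild-type MSCs, adjusted p = 0.0872). Co-receptors and binding proteins had 0 of 12 (median -0.20), with the smallest p-values for Itfg3 (-0.55 ± 0.15, adjusted p = 0.0807) and the matrix proteoglycan Fmod (-1.33 ± 0.43, adjusted p = 0.119). Itfg3 was taken as listed, and a role of it in TGF-beta binding was not checked here. Genes known to respond to TGF-beta had 0 of 19 (median -0.11). The cell cycle inhibitor Cdkn1a was among those with the smallest p-values (0.57 ± 0.16, adjusted p = 0.087). With DESeq2 on recovered reads, 8 of these 19 responders, 2 of 18 Smad genes and 3 of 12 co-receptors passed, where DESeq2 passed 8.05% of all genes.

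**Figure D3:**
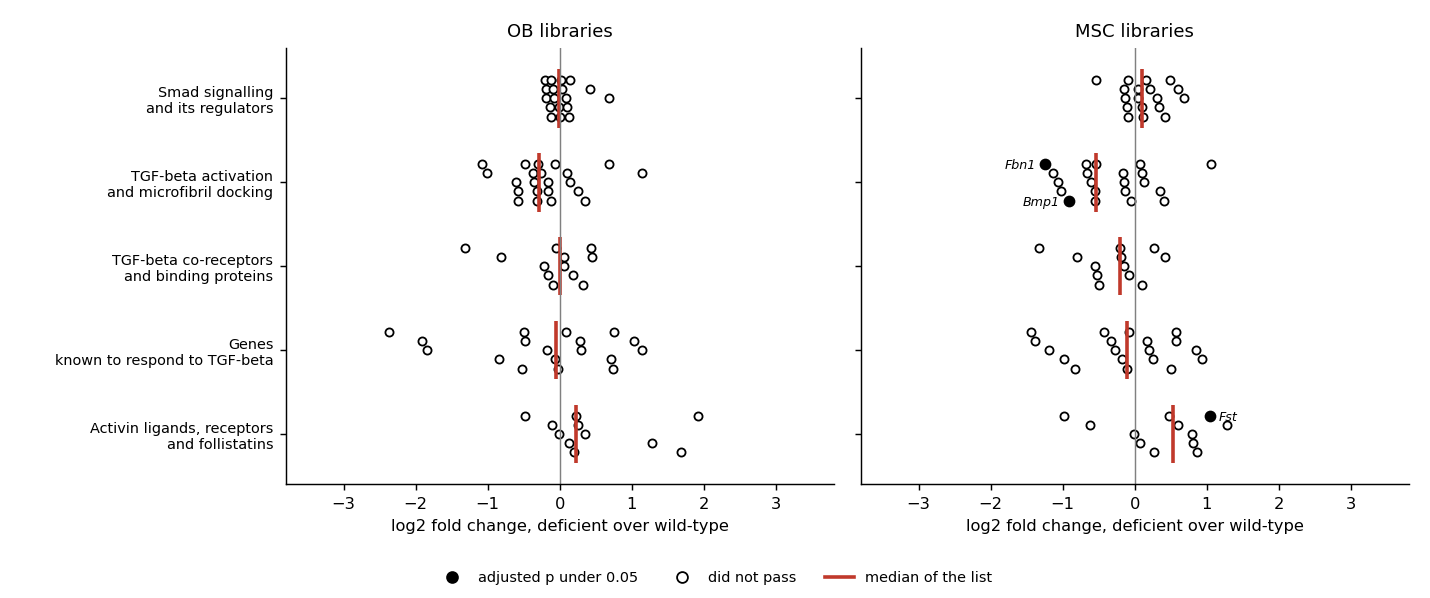
Log2 fold change of deficient over wild-type mice for each gene of 5 TGF-beta pathway lists, in OB libraries (left) and MSC libraries (right); bars mark the median of a list. Filled points passed: Fbn1, Bmp1 and Fst in MSC libraries, and none in OB libraries.

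In OBs, none of the 10 genes passed between deficient and wild-type mice with limma, edgeR or DESeq2. At an unadjusted p under 0.05, limma gave 2 of the 10, Tgfbr3 and Tgfbr2, against 8.95% of all genes. Of all 14229 genes tested, 0.0211% passed as higher and 0.00703% as lower. The libraries of 5.47% of genes did not overlap, and of these 10 only those of Tgfbr3 did not. The median log2 fold change was -0.06 over the 10 genes and -0.02 over all genes.

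Of the receptors in OBs, Tgfbr3 had 5333, 2552, 2542 and 2335 in deficient mice, against 2072, 1679, 2019 and 1685 in wild-type mice. Mouse E was far above the rest, as it was in MSCs, and the other 3 lay close above the wild-type range (0.69 ± 0.23, adjusted p = 0.404). Tgfbr2 had 2050.4, 2175, 1991 and 1981 in deficient mice, against 2254, 2173, 2201 and 2308 in wild-type mice. The groups met at their edges and differed little (-0.13 ± 0.05, adjusted p = 0.517). Tgfbr1 lay between 1089.85 and 1253 in deficient mice and between 1187 and 1311 in wild-type mice (-0.09 ± 0.06, adjusted p = 0.667).

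For Tgfb3, Ltbp4, Tgfb2 and Ltbp1 in OBs, deficient mice E and F had the highest levels of the 8 libraries. The same held for Tgfbr3 above, though there F lay only just above G. Tgfb3 had 930.1, 802, 485 and 408 in deficient mice, against 519, 434, 426 and 431 in wild-type mice, and Ltbp4 had 1344, 1520.2, 711 and 546 in deficient mice, against 585, 702, 629 and 610.1 in wild-type mice. Mice E and F lay above every wild-type library for both genes, while G and H lay within the wild-type range or just outside it. For Tgfb2 the same mice were highest, with 709.7, 531, 373 and 228 in deficient mice, against 339, 417, 209 and 253 in wild-type mice. For Ltbp1 the deficient libraries fell on both sides of wild type. It had 791, 749.7, 248 and 163 in deficient mice, against 485, 505, 391.8 and 348 in wild-type mice, so E and F were above all wild-type libraries and G and H below them all. The log2 fold changes were 0.46 ± 0.24 for Tgfb3, 0.58 ± 0.29 for Ltbp4, 0.52 ± 0.34 for Tgfb2 and -0.12 ± 0.47 for Ltbp1, with adjusted p-values of 0.590 to 0.956.

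The stromal marker sum was likewise highest in mice E and F. It was 21409, 38720.00, 11617 and 6677 in deficient OB libraries E to H, against 7808 to 12170.1 in wild-type OB libraries, with none of the 8 markers at 0 in a whole group and Cxcl12 the highest of them. Without mice E and F, the log2 fold changes of Tgfb3, Ltbp4 and Tgfb2 were all between -0.02 and -0.01, and that of Ltbp1 was -1.08 ± 0.20 (adjusted p = 0.0562), on 2 deficient libraries. Since E and F were the highest libraries for these genes, leaving them out had to lower all of these values. The fit thus says nothing of the reason for their levels. Osteoblast and chondrocyte markers instead separated the OB genotypes. Osteoblast markers summed to between 11698 and 60484 in deficient OB libraries, against 97891 to 209403 in wild-type ones, and chondrocyte markers to between 26398 and 65078 in deficient ones, against 142783 to 374466 in wild-type ones. None of these 8 osteoblast and 6 chondrocyte markers passed. T cell markers, all low, summed to at most 118 in deficient ones, against at least 127 in wild-type ones. The part of these RNAs in the values of the 10 genes was not tested.

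The remaining binders and Tgfb1 in OBs showed no common order. Ltbp2 had 1085, 2397, 612 and 278 in deficient mice, against 1134, 1056, 908 and 655 in wild-type mice, with mouse F highest and mouse H lowest as in MSCs (-0.17 ± 0.54, adjusted p = 0.946). Ltbp3 lay between 2424 and 3944 in deficient mice and between 3086 and 3349 in wild-type mice (-0.05 ± 0.12, adjusted p = 0.919). Tgfb1 was among the steadiest, with 5452 ± 544 in deficient mice and 5674 ± 288 in wild-type mice (-0.06 ± 0.08, adjusted p = 0.838).

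None of the 5 pathway lists held a passing gene in OBs, with 0 of 18 Smad genes, 0 of 22 docking and activation genes, 0 of 12 co-receptors, 0 of 18 responders and 0 of 11 activin genes. The smallest p-values included those of Tgfbi, a matrix protein named for its induction by TGF-beta (779 ± 40.3 in deficient OBs and 1108 ± 108 in wild-type OBs, adjusted p = 0.0874), Col1a1 (33099 ± 20161 in deficient OBs and 144611 ± 45818 in wild-type OBs, adjusted p = 0.204) and Fst (1.92 ± 0.43, adjusted p = 0.215). Others taken by the same rule were the activin subunit Inha (adjusted p = 0.379), Smad7 (adjusted p = 0.357), Smad6 (adjusted p = 0.565), Thbs1 (adjusted p = 0.369), Bmp1 (adjusted p = 0.379), Fmod (adjusted p = 0.378) and Bgn (adjusted p = 0.559).

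Whether the genotype effect differed between sorts was tested as the OB effect minus the MSC effect. None of the 10 genes passed with limma or edgeR, against 0.0129% of 15556 genes tested with limma. At an unadjusted p under 0.05, limma gave 1 of the 10, against 11.5% of all genes, a share near the background. That gene was Tgfb3, whose effect was 0.46 ± 0.24 in OBs and -0.58 ± 0.13 in MSCs, a difference of 1.04 ± 0.28 (adjusted p = 0.248). DESeq2 on recovered reads called it (adjusted p = 0.0283), and no other. For Ltbp1, which passed in MSCs alone, the effects were -0.12 ± 0.47 in OBs and -1.06 ± 0.14 in MSCs, and their difference of 0.95 ± 0.52 did not pass (adjusted p = 0.503), so a different effect in the 2 sorts was not shown. The other 8 differences lay between -0.43 (Tgfbr3) and 0.38 (Ltbp4), with adjusted p-values of 0.633 to 0.945. No gene of the 5 lists passed either.

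The sorts themselves differed in all 10 genes. In wild-type mice, 9 genes were lower in OBs than in MSCs and 1, Tgfb1, was higher. The same split of 1 higher and 9 lower was found in deficient mice. Among all genes tested, 34.4% were higher and 35.5% lower in wild-type mice (14696 tested), and 29.0% were higher and 30.6% lower in deficient mice (14692 tested). The median over the 10 genes was -2.38 in wild-type and -2.11 in deficient mice, against 0.01 and -0.02 over all genes. Quantile normalization shifts the all-gene median to 0.17 in wild-type and 0.10 in deficient mice, and all 10 directions and calls held under it and under every other alternative run.

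Tgfb1 had 5674 ± 288 normalized counts in wild-type OBs and 3129.6 ± 202 in wild-type MSCs, 1.81 times as much (0.86 ± 0.07, adjusted p = 1.27e-06). In deficient mice it had 5452 ± 544 in OBs and 2735 ± 958 in MSCs (1.06 ± 0.23, adjusted p = 0.00326), and every OB library lay above every MSC library in both genotypes. The sister ligands went the other way. Tgfb3 was 11.8-fold lower in wild-type OBs (452 ± 44.3) than in wild-type MSCs (5326 ± 601; -3.55 ± 0.10, adjusted p = 4.50e-09) and 5.39-fold lower in deficient OBs (-2.51 ± 0.24, adjusted p = 4.17e-05). Tgfb2 was 6.68-fold lower in wild-type OBs (305 ± 92.1) than in wild-type MSCs (2035 ± 584; -2.74 ± 0.24) and 5.78-fold lower in deficient OBs (-2.64 ± 0.30).

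The 3 receptors differed less between sorts than Tgfb2, Tgfb3 and the 4 binders did. In wild-type mice Tgfbr1 changed by -0.70 ± 0.10, Tgfbr2 by -1.15 ± 0.06 and Tgfbr3 by -1.01 ± 0.13, with adjusted p-values of at most 0.000131. In deficient mice the changes were -0.84 ± 0.11 for Tgfbr1, -0.97 ± 0.13 for Tgfbr2 and -1.44 ± 0.33 for Tgfbr3. Tgfbr3 in deficient mice was the only one of these 20 comparisons in which libraries of the sorts overlapped, since OB library E, at 5333, lay just above MSC library F, at 5277. Over all genes, the libraries of 65.5% did not overlap in wild-type mice and of 55.2% in deficient mice.

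Of the latent binders, Ltbp4 had the widest gap of the 10 genes in both genotypes and Ltbp3 the narrowest of the 4 binders. Ltbp4 was 20.7-fold lower in wild-type OBs (631 ± 50.6) than in wild-type MSCs (13077 ± 2757; -4.35 ± 0.13, adjusted p = 4.50e-09). Ltbp1 was 13.1-fold lower (432 ± 74.7 in wild-type OBs and 5678 ± 775 in wild-type MSCs; -3.72 ± 0.14), Ltbp2 11.6-fold (-3.54 ± 0.19) and Ltbp3 4.10-fold (-2.03 ± 0.09). In deficient mice the log2 fold changes were -3.97 ± 0.31 for Ltbp4, -3.33 ± 0.63 for Ltbp2, -2.77 ± 0.47 for Ltbp1 and -1.71 ± 0.25 for Ltbp3. Stromal markers mostly moved in the same direction, with 6 of 8 lower and 1 higher in wild-type OBs. This was not particular to them. Tendon and connective fibroblast markers (6 of 6), mural markers (6 of 6), adipocyte markers (4 of 4 tested), osteoblast markers (6 of 8) and neutrophil markers (5 of 6) were also lower. Blood progenitor and erythroid markers were all higher there (6 of 6 each), and chondrocyte markers were divided (3 higher and 2 lower of 6). Their part in these differences was not tested.

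**Figure D4:**
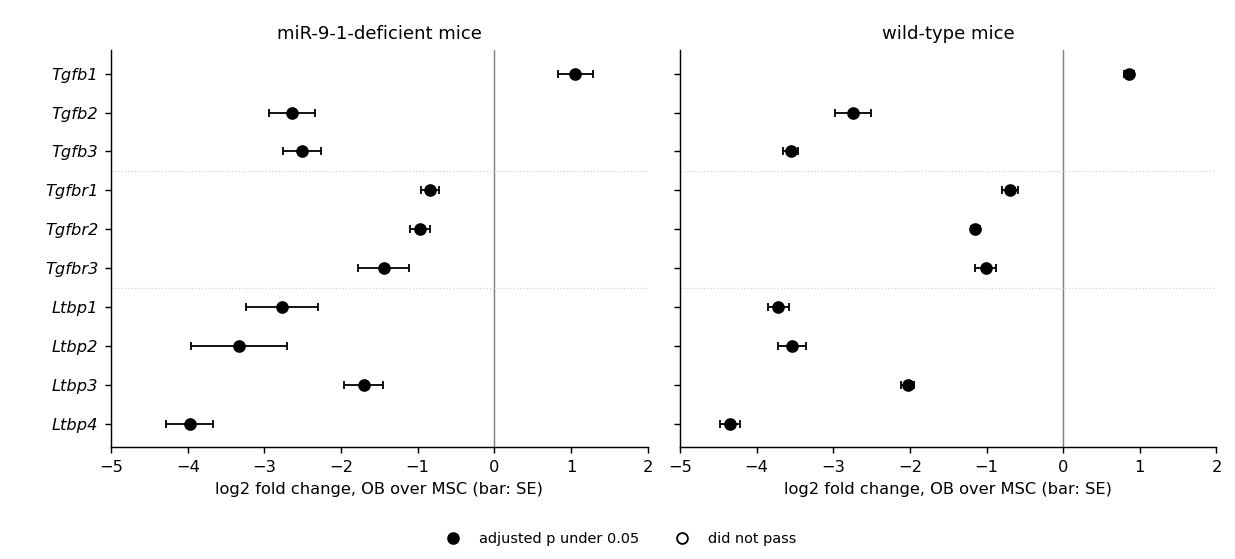
Log2 fold change of OB over MSC libraries for the 10 genes in miR-9-1-deficient mice (left) and wild-type mice (right), with the SE as bars (4 against 4 libraries); all points passed. Tgfb1 lies to the right of 0 in both genotypes and the other 9 genes to the left, with Ltbp4 lowest, at -3.97 in deficient and -4.35 in wild-type mice.

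Other pathway genes followed the binders more than Tgfb1. In wild-type mice, 18 of 21 docking and activation genes were lower in OBs and 3 higher (median -2.51). Fbn1 changed by -3.74 ± 0.14, the plasminogen activators Plat and Plau by -3.72 ± 0.24 and -3.35 ± 0.22, and the protease Mmp2 by -3.35 ± 0.11. Those higher were Nrros, which anchors latent TGF-beta on the surface of myeloid cells (2316 ± 80.5 in wild-type OBs and 372 ± 31.6 in wild-type MSCs, 2.64 ± 0.08), the integrin subunit Itgb3 (1.29 ± 0.18) and Furin, which cleaves the ligand precursor (0.51 ± 0.08). Of 12 co-receptors and binding proteins, 11 were lower (median -2.62), among them Dcn (-3.84 ± 0.18), Acvrl1 (-3.50 ± 0.23), Aspn (-3.44 ± 0.09) and Fmod (-2.84 ± 0.17), and 1 higher, the co-receptor endoglin, Eng (1.18 ± 0.07). Some genes stand on more than 1 list, so counts of such lists are not separate observations. Eng is also a stromal marker and Fmod a tendon and connective fibroblast marker. Col1a1 is both an osteoblast marker and a listed responder, and Inhba is on the responder and activin lists.

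Of 19 responders, 18 were lower in wild-type OBs (median -2.32), with Col3a1 (-4.23 ± 0.18), Acta2 (-3.47 ± 0.53), Postn (-3.45 ± 0.16) and Inhba (-3.08 ± 0.27) lowest, and Klf10 was higher (0.33 ± 0.13, adjusted p = 0.0445). Smad genes were divided, with 5 higher and 9 lower of 18 (median -0.28). Usp15 (0.99 ± 0.09), Skil (0.93 ± 0.13), Tgif1 (0.87 ± 0.12) and the inhibitory Smad7 (0.65 ± 0.11) were higher, and Zfyve9, which presents Smads to the receptor (-2.81 ± 0.31), Ldlrad4 (-2.35 ± 0.17), the inhibitory Smad6 (-2.12 ± 0.14) and Pmepa1 (-1.47 ± 0.08) were lower. Of 11 activin genes tested, 8 were lower, led by Inhbb (-3.64 ± 0.30), Fstl1 (-3.55 ± 0.12) and Fst (-3.13 ± 0.17), and 1 higher, the receptor Acvr1b (0.72 ± 0.13). Counts in deficient mice were close: 3 higher and 17 lower of 21 docking genes, 1 and 10 of 12 co-receptors, 1 and 18 of 19 responders, 3 and 11 of 18 Smad genes, and 0 and 8 of 12 activin genes. In those mice Plau changed by -4.02 ± 0.33, Fn1 by -3.32 ± 0.46, Mmp14 by -3.10 ± 0.42, Dcn by -3.89 ± 0.39, Col3a1 by -4.71 ± 0.71 and Nrros by 3.17 ± 0.22.

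Levels were compared between genes as normalized counts per kilobase of the longest coding transcript (GENCODE vM21). In deficient OBs, the order was Tgfb1 (2507), Ltbp3 (608), Tgfbr3 (524), Tgfbr2 (253), Tgfbr1 (204), Tgfb3 (194), Ltbp4 (191), Ltbp2 (161), Tgfb2 (90.0) and Ltbp1 (73.1). Libraries did not overlap between Tgfb1 and Ltbp3, Tgfbr3 and Tgfbr2, or Tgfbr2 and Tgfbr1, and did between all other neighbours. In wild-type OBs, the order was Tgfb1 (2609), Ltbp3 (622), Tgfbr3 (306), Tgfbr2 (276), Tgfbr1 (218), Ltbp2 (139), Tgfb3 (134), Ltbp4 (117), Ltbp1 (64.8) and Tgfb2 (59.5). Neighbours whose libraries overlapped there were Tgfbr3 and Tgfbr2, Ltbp2 and Tgfb3, Tgfb3 and Ltbp4, and Ltbp1 and Tgfb2. In deficient MSCs, the order was Ltbp4 (2774), Ltbp3 (2047), Tgfbr3 (1429), Ltbp2 (1404), Tgfb1 (1257), Tgfb3 (1046), Tgfb2 (519.8), Tgfbr2 (499.8), Ltbp1 (406) and Tgfbr1 (367), and only Tgfb3 and Tgfb2 were neighbours without overlap. In wild-type MSCs, it was Ltbp3 (2548), Ltbp4 (2428), Ltbp2 (1606), Tgfb3 (1574), Tgfb1 (1439), Ltbp1 (851), Tgfbr3 (624), Tgfbr2 (611), Tgfb2 (398) and Tgfbr1 (356). There, Ltbp4 and Ltbp2, Tgfb1 and Ltbp1, and Tgfbr2 and Tgfb2 were the neighbours that did not overlap. Transcript lengths in use in these cells were not measured.

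The mix of ligands was also set side by side by sort, as shares that carry no test. Tgfb1 made up 89.7% ± 4.65 of the summed ligand level per kilobase in deficient OBs and 93.1% ± 1.08 in wild-type OBs (SD, n = 4), against 43.5% ± 8.86 in deficient MSCs and 42.3% ± 1.76 in wild-type MSCs. Tgfb3 made up 37.7% ± 6.10 in deficient MSCs and 46.2% ± 3.19 in wild-type MSCs, and Tgfb2 18.8% ± 3.75 in deficient MSCs and 11.6% ± 2.57 in wild-type MSCs. Among the binders, Ltbp3 took the main share in OBs, with 61.8% ± 11.9 in deficient and 66.1% ± 3.20 in wild-type mice, against 30.5% ± 3.11 in deficient and 34.4% ± 3.50 in wild-type MSCs.

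**Figure D5:**
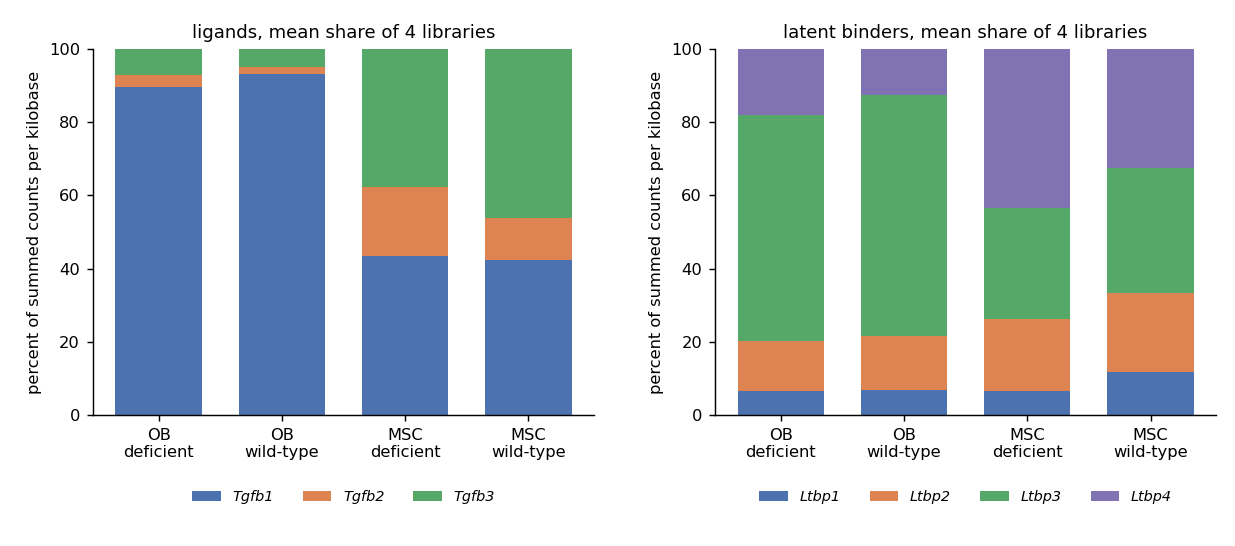
Mean share of each ligand (left) and each latent binder (right) in the summed normalized counts per kilobase of its family, for deficient OB, wild-type OB, deficient MSC and wild-type MSC libraries (4 each). Tgfb1 fills 89.7% of the ligand bar in deficient and 93.1% in wild-type OB libraries, and the Ltbp1 segment is 6.42% in deficient and 11.6% in wild-type MSC libraries.

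Profiles were compared as the root-mean-square difference of log2(value + 1) over the 16 libraries after each gene was centred on its own mean, a description in which libraries of a sort and of a mouse are shared. Among the members, Tgfbr1 and Tgfbr2 were most alike (0.246), followed by Tgfb3 and Ltbp1 (0.404), and Tgfb1 and Ltbp4 least alike (2.61). Against 12570 other genes, Ltbp1 was nearest to the collagen protease gene Adamts2 (0.249) and to Fbn1 (0.270). Adamts2 had 6184 normalized counts in deficient and 11389 in wild-type MSCs. Tgfb3 was nearest to Nfatc4 (0.208) and Pkd2 (0.279), and Tgfb2 to Zfyve9 (0.230) and Ahnak (0.232). Tgfb1 was nearest to Galnt1 (0.0973) and Snrpd2 (0.128). Tgfbr3 was nearest to the kinase gene Pim3 (0.218) and to Sbno2 (0.219), which had 12963 normalized counts in deficient and 6099 in wild-type MSCs. Nearest to Tgfbr1 were Atp2c1 (0.119) and Atxn2 (0.121), and to Tgfbr2 Atp8b2 (0.0903) and Itm2b (0.109). Of the other binders, Ltbp2 was nearest to D030025P21Rik (0.260) and Lum (0.303), Ltbp3 to Gas2l1 (0.144) and Capn2 (0.164), and Ltbp4 to Ecm1 (0.234) and Gsn (0.273).

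The genes with and without miR-9-5p seed matches were set beside the MSC values. Of the 6 with a match in the 3′ UTR, none passed as higher in deficient MSCs, where 0.501% of all genes tested did. At that share, a count of 0 among 6 genes cannot be read as a result about them. Tgfbr3, Tgfb2 and Tgfbr1 had log2 fold changes above 0, at 1.12, 0.42 and 0.05, and Ltbp1, Tgfb3 and Tgfbr2 below 0, at -1.06, -0.58 and -0.30. Tgfbr2, which holds the most matches (3), had the lower mean in deficient mice in both sorts without passing in either. Of the 4 without a match, Ltbp4 was at 0.20, and Tgfb1, Ltbp2 and Ltbp3 were between -0.38 and -0.26. Mature miR-9 was not measured in these libraries.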

How the data were processed

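Sorted OBs and MSCs of 4 miR-9-1-deficient and 4 wild-type mice were sequenced after poly(A) selection with a NEBNext Ultra RNA kit, per the labels' protocols. The authors deposited a normalized signal, read counts divided by a size factor per library, with DESeq2 1.24.0 and the mm10 build per the submitters' processing notes. Aligner, counter, annotation and strand setting: not given in the sources used here. All values (100%) were whole multiples of 1 step per library within 0.01, so reads were recovered.

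The deposited values were tested as log2(value + 1) with limma 3.58.1 (trend) in R 4.3.3, over genes reaching 10 in 4 or more fitted libraries. This scale understates changes of low genes. On recovered counts, edgeR 4.0.16 passed 147 genes and DESeq2 1.42.0 passed 1180 in MSCs, against 159 with limma. The code was tested on simulated data. Members and lists were chosen with earlier results of these data known. Besides the 10 genes, up to 4 passing genes per list and direction were named, or the 2 with the smallest p where none passed, and the 2 nearest profiles per gene. Of those named by this rule, some are left out for the difference of effects and for deficient OBs against MSCs. One further gene it names is not reported here. Intervals of 0 reads use 3 counts at 95% confidence. Reads of replicate pairs differed well beyond sampling noise (chi-square over its degrees of freedom at least 10.3), so none is a duplicate. Title numbers were taken to pair sorts by mouse: deviations from group means correlated at 0.0241 to 0.285, and 7 of 8 numbers matched best with their own. Even so, Xist and Ddx3y were both high in every OB library, so these may hold RNA of more than 1 mouse. Coordinates are on GRCm38 (mm10). RefSeq held promoters for 8 of the 10 genes.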

Additional observations from a re-analysis of the deposited data

Results flagged for a closer look

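Among 40 groups of 4 libraries (10 genes in 4 groups), 2 had 1 library set apart from the rest by Dixon's criterion, where chance alone picks about 1 in 20. Tgfbr3 was at 5333 normalized counts in the deficient OB library of mouse E, against 2335 to 2552.5 in the other 3 deficient OB libraries. The MSC library of the same mouse was also the highest of its group, at 14002. Without that OB library, the log2 fold change of Tgfbr3 in OBs was 0.42 ± 0.09, against 0.69 ± 0.23 with it, and did not pass in either case (limma adjusted p = 0.212 and 0.404). Tgfb3 was at 519 in the wild-type OB library of mouse A, against 426 to 434 in the other 3 wild-type OB libraries.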

How the results depend on the processing

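Of 50 pairs of gene and comparison, 39 kept their direction under every alternative run, and the 10 calls between sorts held in both genotypes throughout. With mice as a replicate block, 10 genes passed between sorts in wild-type mice and 10 in deficient mice, and 0 for the difference of effects, so the paired fit changed no call. The count of passing genes in MSCs was 1 as reported, where 159 of all genes passed. It was 3 with DESeq2 (Ltbp1, Tgfb3 and Tgfbr3; 1180 of all genes), 2 in 1 fit of all 16 libraries (Tgfbr2 and Tgfbr3; 2246 of all), 0 with the animal number series as covariate (8 of all), 0 without mice G and H (0 of all), and 0 to 3 on leaving out 1 library. The 3 came without deficient mouse F, adding Tgfb3 and Tgfbr3, where 2261 of all genes passed; without 1 of the others, 0 to 12 of all genes did. With the level of Xist as covariate, chosen after seeing the data, it stayed 1 (51 of all genes). For the difference of effects, DESeq2 called 1 gene where limma called 0.

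Reversals touched values that had not passed, and their cause was not tested. In MSCs, Tgfbr1 was -0.0018 after quantile normalization and -0.027 to 0.15 on leaving out 1 library, and Ltbp2 was 0.054 without mice G and H. In OBs, edgeR gave 0.21 for Ltbp1 and 0.25 for Ltbp2, as did DESeq2 (0.21 and 0.25). Without mice E and F, Tgfb1 was 0.047, Tgfb2 -0.014, Tgfb3 -0.019 and Ltbp4 -0.015. Leaving out 1 OB library gave -0.45 to 0.30 for Ltbp1, -0.69 to 0.35 for Ltbp2, -0.17 to 0.066 for Ltbp3 and -0.098 to 0.0073 for Tgfb1. For the difference of effects, leaving out 1 library gave -0.15 to 0.40 for Tgfb2 and -0.31 to 0.72 for Ltbp2. Of 1483 values of list genes, 27 newly passed and 56 were lost, with no reversal. In MSCs, docking genes passed 0 to 8 times (2 as reported) and activin genes 0 to 6 (1 as reported). With 4 libraries per group, a p that misses the threshold does not show equality. Protein, isoforms and latent or active TGF-beta were not measured.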
